A study of Mus musculus with 3 samples.

Results

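The cells described here are mouse embryonic stem cells in which MLL1 was inhibited, taken as single wells from 3 chips, called plates 1, 2 and 3 (numbered 105102, 105106 and 105107). Members were the wells whose type in the deposited plate reports is the MLL1-inhibition type, kept when at least 1000 mouse genes were detected and under 20% of mouse-gene UMIs (unique molecular identifiers, each marking 1 captured RNA molecule) came from the mitochondrial genome. Of 1657 such wells, 1590 were kept, out of 4413 kept wells of all 3 cell types. Plates 1, 2 and 3 held 542, 566 and 482 of them. Every plate held all 3 cell types, derived from blastocysts of the C57BL/6J strain, and carries a single genotype label with Mll1fl/fl and Cre-ER TM. The types are named as Mll1fl/fl control (1513 kept wells), Mll1-/-, called deleted here (1310), and Mll1 inhibition, called inhibited here. The compound used for inhibition, with its dose and duration, is missing from the labels, as is any word on whether plates were separate cultures. Differences between plates may therefore be technical, and the p-values below measure only that spread.

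MLL1, encoded by Kmt2a, is a histone methyltransferase that places methyl groups on lysine 4 of histone H3 within a complex that includes Wdr5, Ash2l, Rbbp5 and Dpy30. Embryonic stem cells in culture are known to move between states that differ in the level of pluripotency genes, and to differ in cell cycle phase. Both can make wells of 1 culture unequal. The wells' inequality is the subject here, and its causes were not tested.

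Depth differed widely between the inhibited wells. Median UMIs per kept well were 37093, 28057 and 36389 on plates 1, 2 and 3, and the 90th percentile lay 26.5, 25.6 and 43.6 times above the 10th. In 15 empty wells the median was 165 UMIs. Each well was therefore thinned at random to 10000 mouse-gene UMIs, which left out 345 shallower inhibited wells and kept 444, 424 and 377, and all levels below are UMIs per thinned well. Thinning did not remove every trace of depth. The number of genes detected in a thinned inhibited well still rose with its depth before thinning, with rank correlations of 0.25, 0.55 and 0.31. The part of depth in the spreads and correlations below was not tested. Plates 1 and 2 shared 153 barcodes between kept inhibited wells, always at the same chip position. For the 106 such pairs deep enough to thin, each gene's mean over those wells of a plate was subtracted before wells were correlated. The median correlation of these deviations was 0.016 for paired wells, against -0.00088 for wells with different barcodes. Plate 3 shared none with either.

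The 4 marker genes of the population were all detected on every plate, but mostly not together in a well. At least 1 UMI of Pou5f1, Sox2, Dppa5a or Gins2 was found in 99.8, 99.5 and 99.7% of wells, and all 4 in 52, 63 and 32 wells. Pou5f1, the core pluripotency factor also called Oct4, was at 0 in 59.0, 58.0 and 61.8% of wells, with at most 6, 5 and 7 UMIs. Markers of other cell types were low after thinning, and no thinned well held 3 or more of the fibroblast, primitive endoderm, trophectoderm or neural markers. Before thinning, 23, 26 and 23 kept wells held at least 10 UMIs of the trophectoderm markers, with a highest well of 91, 112 and 370. For the neural markers 40, 29 and 35 wells did, for the primitive endoderm markers 13, 9 and 18, and for the fibroblast markers 0, 6 and 2. The summed fibroblast markers (Col1a1, Col1a2, Col3a1, Thy1, Lum, Dcn and Postn) averaged 0.0090, 0.052 and 0.016 UMIs per well with a highest well of 4, 7 and 2, and 6, 2 and 5 of the 7 were at 0. The summed primitive endoderm markers averaged 0.099, 0.14 and 0.20. The summed trophectoderm markers Cdx2, Gata3, Elf5 and Krt7 averaged 0.31, 0.35 and 0.33, were seen in 15.3, 15.3 and 16.2% of wells and reached 19, 20 and 18 UMIs, with Elf5 alone at 0 in every thinned inhibited well. The summed neural markers averaged 0.37, 0.45 and 0.40 and were seen in 20.3, 21 and 19.6% of wells.

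Spread was measured by the variance over wells divided by the mean, which is 1 for pure counting noise. Genes with a mean of 0.5 to 1 UMI had a median ratio of 2.75, 2.83 and 3.14 on plates 1 to 3, above the 1 of pure counting noise. Genes with a mean of only 0.02 to 0.05 UMIs already had a median ratio of 1.87, 1.87 and 1.90. They gave a median of 1.47, 1.5 and 1.5 UMIs in each well where they were seen at all. UMIs were thus clumped even near the floor, and the part of this clumping in the ratios of other genes was not tested. Each gene was then set against the smooth trend of this ratio with level on its plate, and the log2 distance from the trend is called its excess spread. Across 3124 genes with a mean of at least 0.5 UMIs, the rank correlation of excess spread was 0.72 between plates 1 and 2, 0.63 between plates 1 and 3, and 0.64 between plates 2 and 3. Genes are not independent replicates, and these correlations describe how alike the plates ranked them.

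**Figure D1:**
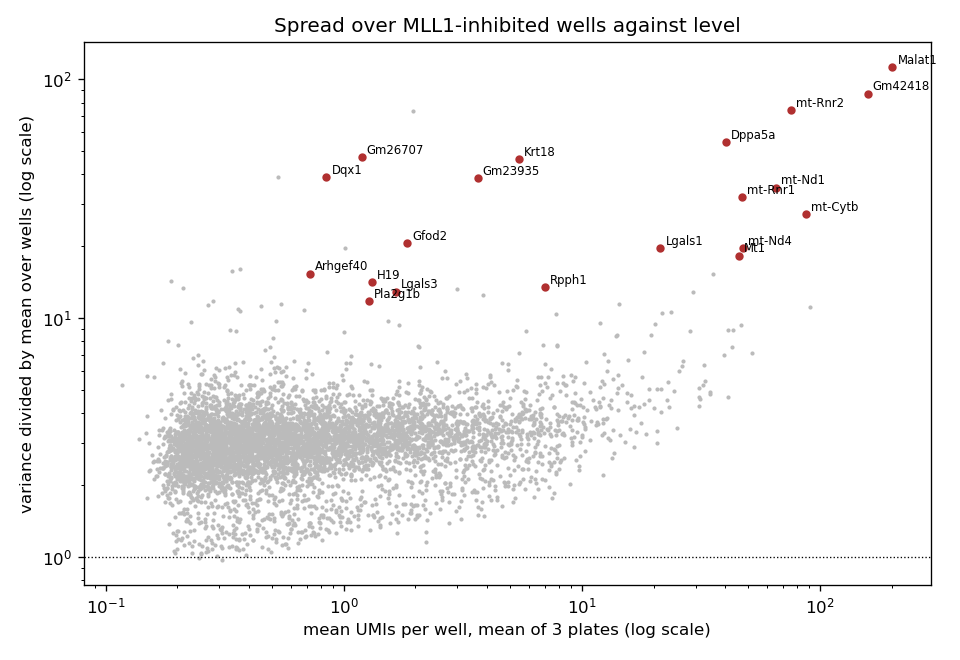
Variance divided by mean over MLL1-inhibited wells (vertical, log scale) against mean UMIs per thinned well (horizontal, log scale), both as means of 3 plates, with 1 point a gene. Red points are the 20 genes with the highest excess spread on their lowest plate, and the dotted line at 1 marks pure counting noise. Malat1 and Dppa5a stand above the cloud at high levels, and Dqx1 and Gm26707 at low levels.

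The 20 genes with the highest lowest-plate excess among those 3124 fell into a few kinds. They were Malat1, Gm42418, Gm26707, H19, Rpph1 and Gm23935 among noncoding RNAs, the mitochondrial genes mt-Rnr2, mt-Rnr1, mt-Nd1, mt-Nd4 and mt-Cytb, and the nuclear coding genes Dppa5a, Dqx1, Krt18, Gfod2, Arhgef40, Pla2g1b, Mt1, Lgals1 and Lgals3. H19, the last of the 20, had 1.43, and the next gene, Arl5c, had 1.32. These values chose the genes and are given as a description.

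Dppa5a, a pluripotency-associated RNA-binding protein gene (ENSMUSG00000060461, GRCm38 chromosome 9, 78367052 to 78368177), spread widely between wells. Its 10th percentile was 3, 2 and 3 UMIs, its median 19, 18 and 21, and its 90th percentile 116, 110 and 99.6 on plates 1, 2 and 3. The highest wells held 300, 232 and 242, and 1.80, 2.59 and 1.59% of wells had none. The variance was 60.4, 53.4 and 49.8 times the mean. Reads of Dppa5a and its processed pseudogene Gm6083 may be shared, since their levels correlated at 0.84, 0.86 and 0.81 over wells and the treatment of reads that match both is not known. Position in the source plate accounted for at most 0.8% of its variance on any plate, and its rank correlation with the well's depth before thinning was 0.0017, 0.042 and 0.015.

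Among the other pluripotency genes some lay above the trend and some below it, none as far above as Dppa5a. Of the 21 members of the pluripotency list with a mean of at least 0.2 UMIs, 9, Dppa5a included, lay above the trend on all 3 plates, against 25.4% of all 5545 such genes. The median lowest-plate excess of the 21 was -0.03, against -0.22 over the 5545 genes. Sox2 had a median of 1, 0 and 1 UMI, a 90th percentile of 4, 3.7 and 5, and an excess spread of 0.05 on its lowest plate. Pou5f1 had a variance of 1.37, 1.32 and 1.61 times the mean, near counting noise, with an excess spread of -1.12 on its lowest plate. Nr0b1, a nuclear receptor gene of naive pluripotent cells, was at 0 in 71.8, 74.5 and 70.0% of wells but reached 17, 12 and 30 UMIs, with an excess spread of 0.70 on its lowest plate. Nanog was at 0 in 93.9, 92.9 and 91.8% of wells.

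Wells were split by Dppa5a at 10 and 50 UMIs, thresholds chosen after the values were seen. Wells with at least 50 made up 31.1% on plate 1 (exact binomial 95% interval 26.8 to 35.6), 30.7% on plate 2 (26.3 to 35.3) and 25.2% on plate 3 (20.9 to 29.9), and these intervals cover counting error only. Between positions in the source plate, the share with at least 50 ran from 26.9 to 34.4% on plate 2 and from 17.4 to 32.3% on plate 3. Whether these ranges exceed counting error was not tested. There was no gap at the upper threshold: 31, 39 and 43 wells lay close to it, between 40 and 60 UMIs. Median depth before thinning was 61736, 46403 and 66772 UMIs in the wells with at least 50 and 57490, 37027 and 57553 in those under 10, and its part in what follows was not tested. Dnmt3l, which assists the enzymes that set up DNA methylation, averaged 1.33, 1.12 and 1.2 UMIs in wells with at least 50 Dppa5a UMIs and 0.31, 0.37 and 0.37 in those under 10. Nr0b1 averaged 1.59, 1.75 and 2.99 against 0.54, 0.50 and 0.37. Tet1, which oxidises methylated cytosine, averaged 2.51, 2.42 and 2.78 against 1.49, 1.35 and 1.62. Lgals1, a galectin gene, went the other way, with 14.5, 18.7 and 12.7 against 27.9, 28.4 and 23.7. Pou5f1 differed little and not in 1 direction, with 0.67, 0.55 and 0.58 against 0.61, 0.54 and 0.65.

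**Figure D2:**
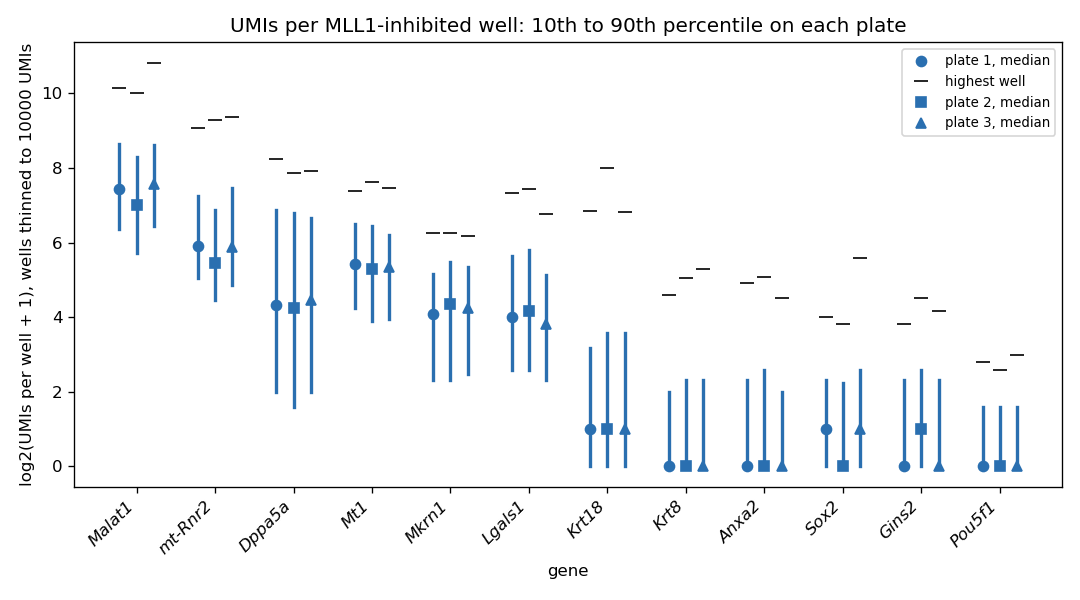
UMIs per MLL1-inhibited well thinned to 10000 UMIs, as log2(UMIs + 1), for 12 genes on plates 1 to 3. Bars run from the 10th to the 90th percentile of wells, symbols mark the medians and short dashes the highest well. Dppa5a and Krt18 have wide ranges on every plate, while Pou5f1 stays at or near 0.

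Krt18, which encodes a keratin of simple epithelia (ENSMUSG00000023043, GRCm38 chromosome 15, 102028180 to 102032027), was low in most wells and high in a few. Its median was 1 UMI on each plate and its 90th percentile 8, 11 and 11, while the highest wells reached 114, 257 and 112. It was at 0 in 36.0, 38.2 and 29.7% of wells. Its usual partner keratin Krt8 was at 0 in 64.0, 66.5 and 56.0% and reached 23, 32 and 38 UMIs. The pair correlated at 0.59, 0.69 and 0.61 on plates 1, 2 and 3 over 444, 424 and 377 wells, on log2 of UMIs plus 1. These and the following correlations describe wells that share a library, and carry no p.

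A group of cytoskeletal and membrane-associated genes rose and fell with Krt18 from well to well. The 3 genes outside the keratin list with the highest lowest-plate correlation were Anxa2, a membrane-binding annexin (0.50, 0.54 and 0.43), Lgals3, a galectin (0.44, 0.49 and 0.40), and Cryab, a small heat shock protein gene (0.38, 0.40 and 0.42). Lgals1 (0.33, 0.38 and 0.32) and Tagln, an actin-binding protein gene (0.33, 0.29 and 0.33), followed. Over 3123 other genes, 27 had a correlation of at least 0.2 with Krt18 on every plate and 12 had -0.2 or lower on every plate.

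The lowest correlations with Krt18 were those of Mkrn1 and Chchd10. Mkrn1, a ubiquitin ligase gene (ENSMUSG00000029922, chromosome 6, 39397804 to 39420462), had -0.41, -0.47 and -0.43, and Chchd10, which encodes a mitochondrial protein, had -0.40, -0.47 and -0.35. Mkrn1 and Chchd10 correlated with each other at 0.40, 0.52 and 0.38. Mkrn1 was present in nearly all wells, with a 10th percentile of 4, 4 and 4.6, a median of 16, 19.5 and 18 and a 90th percentile of 35, 44 and 40 UMIs. Dppa5a was only weakly related to Krt18 (-0.13, -0.18 and -0.18) and more to Lgals1 (-0.33, -0.22 and -0.27).

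**Figure D3:**
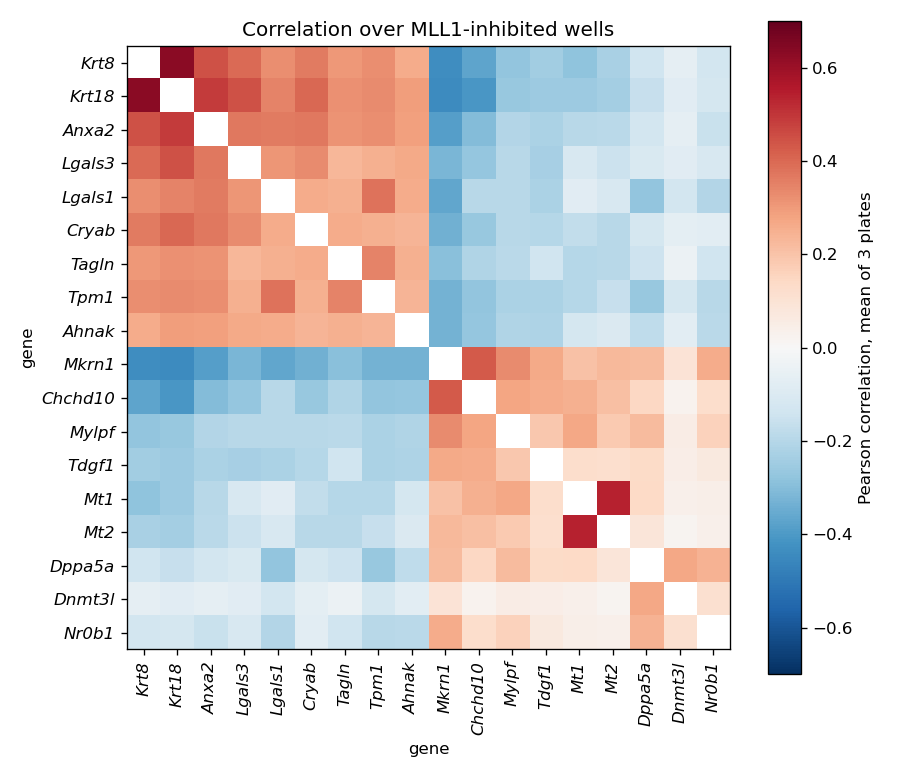
Pearson correlation over MLL1-inhibited wells between 18 genes, as the mean of 3 plates, from blue (negative) to red (positive), with the diagonal left blank. The 9 genes from Krt8 to Ahnak correlate positively with each other and negatively with Mkrn1 and Chchd10, whose own correlation is positive.

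Wells were also split by the sum of Krt7, Krt8, Krt18 and Krt19, again with thresholds chosen after the values were seen. Wells with at least 5 keratin UMIs made up 22.7% on plate 1 (exact binomial 95% interval 18.9 to 26.9), 23.8% on plate 2 (19.8 to 28.2) and 31.0% on plate 3 (26.4 to 36.0), and wells with none 24.3, 27.6 and 17.5%. These intervals cover counting error only. Between positions in the source plate, the share with at least 5 was nearly equal on plate 1, at 22.3 to 23.5%. It ran from 20.5 to 28.7% on plate 2 and 21.9 to 36.5% on plate 3. Whether these ranges exceed counting error was not tested. On either side of the upper threshold, 51, 45 and 52 wells lay within 1 UMI. Anxa2 averaged 3.38, 4.23 and 2.19 UMIs in the wells with at least 5 and 0.49, 0.57 and 0.33 in those with none. Mkrn1 averaged 12.3, 11 and 13.3 against 22, 27.3 and 27.4. Median depth before thinning was 47908, 48599 and 49755 UMIs in the keratin-rich wells and 68760, 46432 and 88743 in the wells with none, and its part was not tested. The summed pluripotency list was lower in the keratin-rich wells on every plate, with 53.2, 38.0 and 54.0 UMIs against 71.9, 70.3 and 72.5. Dppa5a averaged 33.3, 21.8 and 31.7 against 46.7, 44.6 and 45.4, and Tdgf1, a Nodal co-receptor gene, 1.79, 1.14 and 1.96 against 2.64, 2.88 and 3.77. Nr0b1 and Zfp42 were also lower on every plate than in wells with none. On plates 1 and 2, however, Nr0b1 was highest in wells with at least 1 but under 5 keratin UMIs, at 1.17 and 1.25. Tet1 was lower on plates 1 and 2 but not on plate 3, with 1.35, 0.95 and 1.91 against 2.23, 2.44 and 1.82. Sox2 showed no common direction, with 1.09, 0.88 and 1.19 against 1.22, 1.21 and 1.11, and neither did Pou5f1, with 0.52, 0.50 and 0.67 against 0.72, 0.70 and 0.52.

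As sums, the trophectoderm regulators and the primitive endoderm list, although low, were higher in the keratin-rich wells on every plate. The summed trophectoderm regulators averaged 1.25, 0.81 and 0.99 UMIs in wells with at least 5 keratin UMIs and 0.54, 0.43 and 0.33 in those with none, and Elf5 was at 0 in both. Cdx2 was highest in wells with at least 1 but under 5 keratin UMIs, at 0.064, 0.058 and 0.036. In those with at least 5, Cdx2 averaged 0.0495, 0.0099 and 0.017, against 0.0093, 0.0085 and 0.015 in those with none. Gata3 averaged 0.18, 0.12 and 0.12 against 0.056, 0.060 and 0.11. The summed primitive endoderm list averaged 2.46, 1.93 and 1.76 against 0.97, 0.73 and 0.76, and over all thinned inhibited wells Lrp2, an endocytic receptor gene, made up 1.13 of 1.26, 0.88 of 1.05 and 0.93 of 1.14 UMIs of that list. Primitive endoderm transcription factors did not share a common rise. Gata6 averaged 0, 0.0099 and 0 against 0, 0.0085 and 0, and Sox17 was at 0 in the keratin-rich wells of every plate. Gata4 averaged 0.0495, 0 and 0.026 against 0.0093, 0 and 0. The longer fibroblast list, which includes Vim and Fn1, averaged 1.83, 2.18 and 1.96 against 2.23, 2.28 and 1.88. The part of any other cell type in the keratin-rich wells was not tested.

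The metallothionein genes Mt1 and Mt2, whose products bind zinc and other metals and which lie next to each other on chromosome 8, also varied together. Mt1 had a median of 42, 38 and 40 UMIs with a 10th to 90th percentile of 18 to 88.7, 14 to 85.7 and 14.6 to 73, and Mt2 a median of 13, 12 and 12. They correlated at 0.53, 0.58 and 0.51. Metallothionein promoters are known for metal response elements, so the 250 bases upstream of each start (RefSeq, build GRCm38.p6, plus strand) are shown, Mt1 at chr8:94178839-94179088 and Mt2 at chr8:94172368-94172617. Capitals mark the letters TGCACNC or TGCGCNC on either strand, found 1 time for Mt1 and 3 times for Mt2, and in 21.4% of all 32851 windows of this length. No match is shown here to be a working site. GENCODE M21 places the gene starts at 94179082 (Mt1) and 94172664 (Mt2), so the windows, and possibly the numbers of matches, depend on the start chosen.
Mt1: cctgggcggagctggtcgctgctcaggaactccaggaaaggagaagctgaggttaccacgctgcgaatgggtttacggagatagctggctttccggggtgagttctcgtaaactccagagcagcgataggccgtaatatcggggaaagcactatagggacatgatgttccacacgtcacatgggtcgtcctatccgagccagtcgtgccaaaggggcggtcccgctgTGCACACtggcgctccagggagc
Mt2: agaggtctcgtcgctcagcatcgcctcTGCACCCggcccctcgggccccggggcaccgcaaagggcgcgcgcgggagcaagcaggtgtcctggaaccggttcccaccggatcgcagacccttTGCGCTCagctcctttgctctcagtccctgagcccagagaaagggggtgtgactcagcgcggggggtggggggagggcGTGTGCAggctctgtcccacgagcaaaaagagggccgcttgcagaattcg

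RNA from the mitochondrial genome varied as a block, in wells that were themselves kept by their share of it. The summed list had a 10th percentile of 239, 224.9 and 230, a median of 342, 321 and 337, and a 90th percentile of 585.5, 573.4 and 680 UMIs. mt-Rnr1 and mt-Rnr2, the ribosomal RNAs of the mitochondrion, correlated at 0.66, 0.67 and 0.68. Malat1, a nuclear noncoding RNA, had a median of 174, 127.5 and 189 UMIs and reached 1141, 1036 and 1817. It ran with Ahnak, a large scaffold protein gene, at 0.24, 0.30 and 0.28 and against Npm1, which encodes a nucleolar protein, at -0.30, -0.29 and -0.23. mt-Rnr2 ran against Ubb, a ubiquitin gene, at -0.27, -0.32 and -0.31. Gm42418 rose with the depth of the well before thinning, with rank correlations of 0.48, 0.33 and 0.47.

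Some highly variable genes were absent from most wells. Dqx1, a predicted helicase gene, was at 0 in 90.3, 94.6 and 87.5% of wells and reached 116, 71 and 58 UMIs. Gm26707, a long noncoding RNA gene, was at 0 in 86.3, 92.5 and 87.0% and reached 210, 34 and 112. H19, an imprinted noncoding RNA, was at 0 in 59.0, 65.6 and 60.5% and reached 53, 98 and 43. H19 correlated with Krt18 at 0.24, 0.30 and 0.22.

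To see which gene lists varied as units, the variance of each list's summed UMIs was divided by the sum of its members' variances, a ratio of 1 for members that vary independently. Of 30 lists, 11 had a ratio of at least 1.2 on every plate. The mitochondrial genome had a mean of 4.12 ± 0.24 (SD, n = 3 plates), the G2 and mitosis list 2.75 ± 0.52, the actin and contractile list 2.27 ± 0.38, the annexins and galectins 1.92 ± 0.17, and the keratins 1.49 ± 0.11. The other 6 were the cytosolic ribosomal proteins (1.83 ± 0.19), oxidative phosphorylation (1.66 ± 0.13), glycolysis and hypoxia (1.58 ± 0.10), S phase (1.44 ± 0.16), basement membrane (1.39 ± 0.095) and immediate early genes (1.32 ± 0.082). The mitochondrial ratio depends on the well filter, which cuts on the mitochondrial share. With only wells under 10% kept, its mean was 3.14. The pluripotency list had 1.14 ± 0.027, and without Dppa5a, which carries most of its variance, 1.60, 1.51 and 1.67. The MLL1 complex had 1.02 ± 0.049, a value in which Dpy30 weighs most, with a mean of 9.01 UMIs, so it says little about how the scarcer members vary together. Summed G2 and mitosis UMIs ran from 33, 31 and 33 at the 10th percentile to 95, 112 and 94 at the 90th. Cenpf, a centromere protein gene, correlated with Prc1, a regulator of cytokinesis, at 0.25, 0.32 and 0.24.

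**Figure D4:**
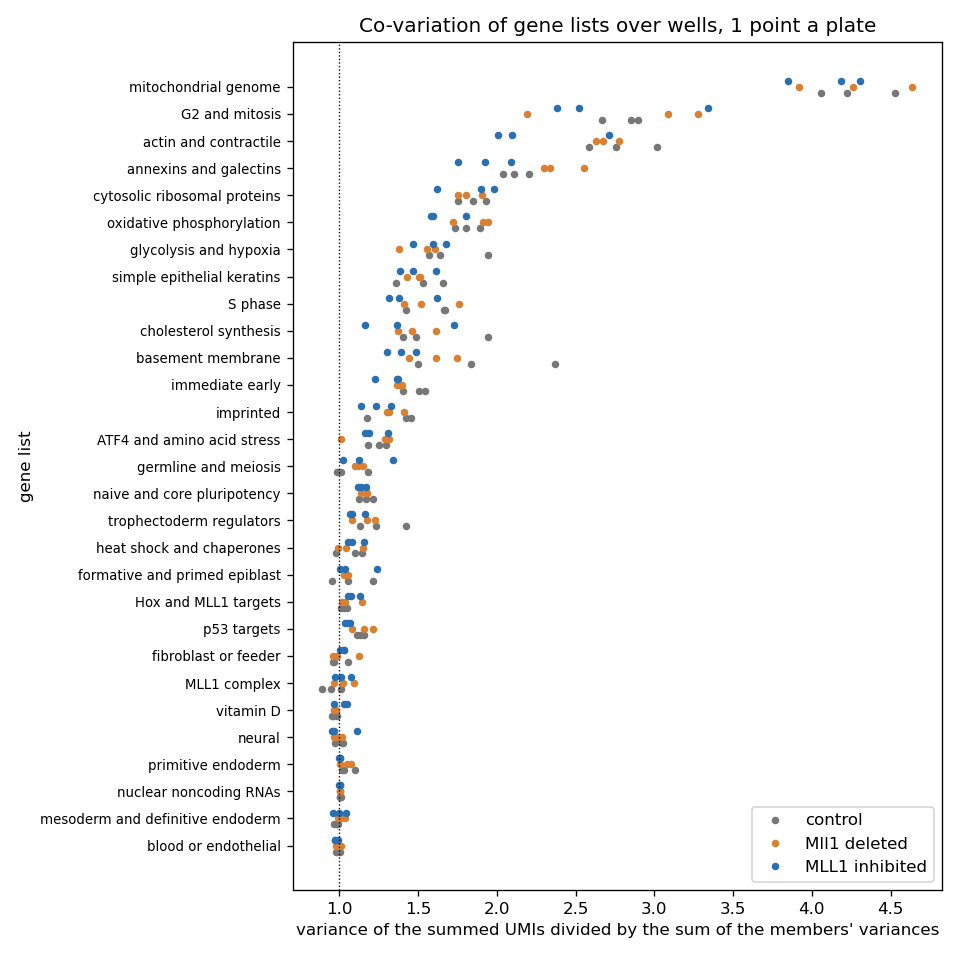
Variance of summed UMIs divided by the sum of the members' variances (horizontal) for 29 gene lists, with 1 point a plate for control (grey), Mll1-deleted (orange) and MLL1-inhibited (blue) wells. The dotted line at 1 marks independent members. The mitochondrial genome lies farthest to the right in all 9 libraries, and the G2 and mitosis list comes next on all 3 plates of inhibited wells but not in every control and deleted library. The 2-cell-like list is not drawn.

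Summed lists were also set against each other by rank correlation over wells. Keratins ran with the annexins and galectins at 0.37, 0.38 and 0.35 and with the actin and contractile list at 0.29, 0.40 and 0.37. The pluripotency list ran against the annexins and galectins at -0.37, -0.36 and -0.38 and against the keratins at -0.17, -0.28 and -0.20. S phase and G2 and mitosis were close to unrelated, at -0.15, -0.0010 and -0.023.

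The 2-cell-like list, genes of the Zscan4 family and others active in the 2-cell embryo, had a ratio above 1.2 on plate 1 only. There, 1 well held 264 UMIs of the 8 marker genes before thinning, from 6 genes, out of 56645 or 0.47%. No other kept inhibited well reached 10 such UMIs, while 5 control and 4 deleted wells did.

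Spread in the inhibited wells was then compared with that in the other cell types. No gene passed: 0 of 5640 genes (0%) differed in excess spread from control and 0 of 5640 (0%) from deleted wells at an adjusted p under 0.05 in limma with plate as a block, while 261 and 312 had an unadjusted p under 0.05. For Dppa5a the difference from control was 0.28 ± 0.22 (log2, SE, limma adjusted p = 0.94), and for Krt18 it was -0.61 ± 0.41 (adjusted p = 0.94). The 95% intervals reached 0.49 (Dppa5a) and 0.92 (Krt18) to either side of these estimates. Both intervals include 0 as well as differences larger than the estimates. In data simulated for 5640 genes, with no spread between plates beyond that of drawing wells, limma called 94% of 100 genes with a 4-fold change of excess variance and 24% of 100 with a 2-fold change.

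**Figure D5:**
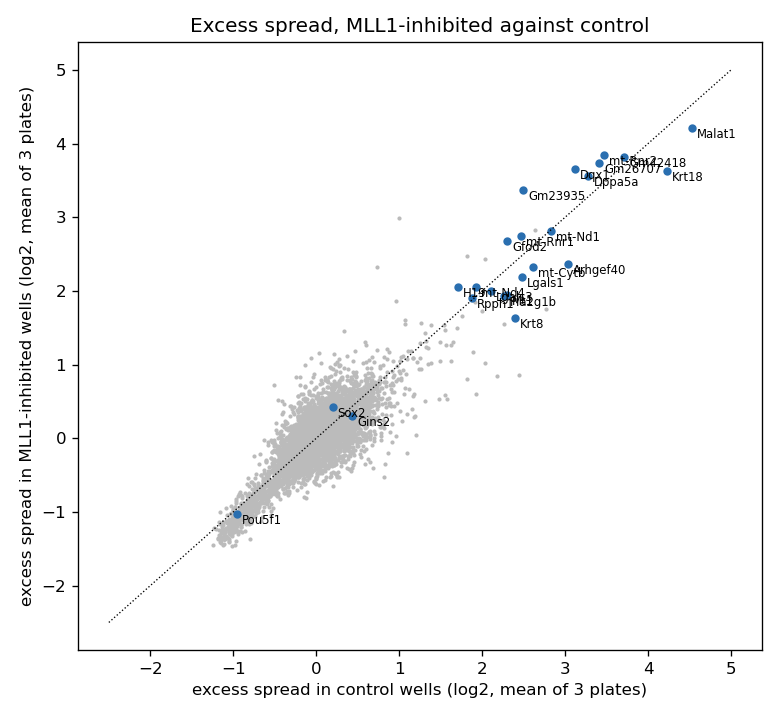
Excess spread in MLL1-inhibited wells (vertical) against control wells (horizontal), each as log2 distance from the trend and the mean of 3 plates, with 1 point a gene for 5640 genes. Named genes are in blue and the dotted line marks equal values. Malat1, Krt18 and Dppa5a are at the upper end in both, and Pou5f1 at the lower end in both.

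The opposed gene groups were present in the other cell types as well. Krt18 and Mkrn1 correlated at -0.50, -0.45 and -0.44 in control wells and at -0.50, -0.56 and -0.47 in deleted wells. For the lists, the test used was the exact two-sided sign permutation over 3 plates, which cannot give a p under 0.25 and so can call no list. Of 30 lists, 12 had a lower ratio in inhibited than in control wells on all 3 plates and 2 a higher one, and 6 were lower and 0 higher than in deleted wells on all 3. The 4 lists lower than both on all 3 plates were the annexins and galectins, S phase, p53 targets and pluripotency (exact permutation p = 0.25 for each). The p53 ratio in inhibited wells was 1.05, 1.07 and 1.03, and without its most variable member, Rps27l, 1.43, 1.31 and 1.30. No comparison with the other cell types without Rps27l or Dppa5a is given here. The annexins and galectins had 1.92 in inhibited, 2.12 in control and 2.40 in deleted wells, a mean difference from deleted of -0.48 ± 0.11 (SD, n = 3 plates). S phase had 1.44, 1.59 and 1.56, a mean difference from deleted of -0.13 ± 0.026. Wells with at least 50 Dppa5a UMIs made up 29.0% ± 3.3 of inhibited, 45.6% ± 3.3 of control and 39.9% ± 3.9 of deleted wells (SD, n = 3 plates), a description at a threshold chosen after the values were seen. Such a share depends on the level of the gene as well as on its spread, and is not a measure of excess spread.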

How the data were processed

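The submitters' processing notes list build mm10 and the tools Subread 1.4.6-p1, featureCounts and STAR 2.5.2b. Values in the deposited tables are whole UMI counts for each well and gene, and no scaling by the authors is visible in them. The deposited plate reports hold other values, such as well type and position. Of 29267 mouse gene identifiers, 28641 matched GENCODE M21. Strand and multi-mapping settings are not stated. Members, lists and thresholds were chosen with earlier results of these data known.

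Detected genes and the mitochondrial share were computed over mouse genes, leaving out spike-ins and the reporter. A first version counted those columns too and kept 1593 inhibited and 4425 wells in all; the definition was changed after its results had been seen, the new count equalled that of an earlier description of these data, and both versions are reported. No doublet caller was run. Kept wells were thinned to 10000 UMIs (seed 11, numpy 2.4.6). The trend was a lowess fit (statsmodels 0.14.6, span 0.3). limma 3.58.1 in R 4.3.3 compared 9 libraries (3 cell types on 3 plates), genes with a mean of at least 0.2 UMIs, with Benjamini-Hochberg adjustment, and was tested on simulated data. Plates pair the cell types because each chip held all 3; deviations on the same plate correlated at 0.040 to 0.098, on different plates at -0.078 to 0.0056. Named genes were the markers, the 20 most variable, up to 3 members a list, and correlated partners; Mt2, Prc1 and Chchd10, the well groups and the negative correlations were chosen after their values were seen.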

Additional observations from a re-analysis of the deposited data

How the results depend on the processing

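No gene was called different in spread from control under any of the alternatives run, with a smallest limma adjusted p of 0.088 to 1.00. Against deleted wells, 1 gene was called at 5000 UMIs, Vps72 (difference -2.30 ± 0.23, limma adjusted p = 0.0062); its adjusted p was 0.16 at 10000 UMIs, and the smallest adjusted p of that comparison was 0.068 to 0.90 over the other alternatives. The fit with no replicate block gave 0 calls in both comparisons, as did leaving out any 1 plate. With spike-ins and the reporter counted in the well filter, an alternative added after seeing the data, both counts were 0, 19 of the 20 most variable genes were shared, and 11 lists reached a ratio of 1.2. Over all alternatives, 16 to 20 of the 20 most variable genes were shared and 10 to 13 lists reached that ratio. Median UMIs of inhibited wells rose from 32890 to 44535 with a minimum of 2000 genes. Of the 10 most variable genes with means under 0.5 UMIs, only 4 were shared with another thinning draw, so none is described for that ranking. Depth limits what is seen: a gene at 0 in a thinned well may still be expressed there.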
